A study of Mus musculus with 12 samples.

Results

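The Hox genes measured here were the 33 genes whose single annotated symbol was Hoxa, Hoxb, Hoxc or Hoxd followed by a number, out of 18193 genes in all. They are 33 of the 39 Hox genes in mouse RefSeq: 9 from the Hoxa cluster, 9 from Hoxb, 7 from Hoxc and 8 from Hoxd. Each gene was represented by the 1 of its probe sets with the highest mean over the 12 arrays, and these were taken from 48 Hox probe sets. Hoxb8 and Hoxd4 shared their probe sets with a neighbouring Hox gene and were left out of the 33, and the remaining genes were not analysed here.

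The arrays compared 4 populations of mouse embryonic stem cell derivatives. All cells came from embryoid bodies (aggregates formed in hanging drops) that were dissociated at day 6 and carried 2 fluorescent reporters, a red one (dsRed) specific to the second heart field and a green one (eGFP) driven by a cardiac-specific enhancer. Sorting by colour gave double-positive cells (both reporters on), red-only cells, green-only cells and double-negative cells, each on 3 arrays from experiments A, B and C. The double-negative population thus carried both transgenes too and was sorted for the lack of their fluorescence. It also differed in other cell type markers, given below. The cell line, its strain and the number of clones are not given in the sources used here, and the labels do not say whether the experiments were separate cultures, so p-values measure the spread between these arrays. All 5 cardiac markers measured (Actc1, Myh6, Myl7, Nkx2-5 and Tnnt2) were called higher than in double-negative cells wherever a reporter was on. Their summed intensity ran from 12590 to 15492 units on the double-positive, 2465 to 3714 on the red-only, 7015 to 8719 on the green-only and 265 to 422 on the double-negative arrays.

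Hox genes encode homeodomain transcription factors that give cells their position along the body axis. They lie in 4 clusters, and genes of the same paralogue number in different clusters descend from 1 ancestral gene. Within a cluster, genes of low number are switched on first and reach furthest towards the head, and those of high number act in the trunk, limbs and tail. In the heart region, anterior genes such as Hoxb1 and Hoxa3 are known to mark the posterior part of the second heart field under the control of retinoic acid. Pluripotent cells hold the clusters under Polycomb repression.

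Promoters of members are shown for Hoxa5, the 1 gene with a called difference that has a RefSeq window, for its neighbour Hoxa7, which was above the array medians without a call, and for Hoxb4, which borders the genes called in the Hoxb cluster. Each is the 250 bases before the RefSeq start on build GRCm38.p6, read 5′ to 3′ on the gene's own strand, and capitals mark matches to the motifs searched.
Hoxa5, chr6:52204588-52204837, minus strand: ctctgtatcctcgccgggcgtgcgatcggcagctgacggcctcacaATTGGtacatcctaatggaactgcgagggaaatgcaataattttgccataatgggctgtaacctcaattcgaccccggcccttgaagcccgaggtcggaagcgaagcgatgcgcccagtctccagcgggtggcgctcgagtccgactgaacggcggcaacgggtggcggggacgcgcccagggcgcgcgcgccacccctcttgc
Hoxa7, chr6:52218574-52218823, minus strand: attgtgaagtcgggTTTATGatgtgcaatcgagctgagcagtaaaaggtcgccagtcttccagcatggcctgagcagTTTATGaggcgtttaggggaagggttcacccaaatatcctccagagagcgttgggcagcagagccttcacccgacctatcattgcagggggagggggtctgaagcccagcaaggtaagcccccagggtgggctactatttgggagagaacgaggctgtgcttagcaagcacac
Hoxb4, chr11:96318017-96318266, plus strand: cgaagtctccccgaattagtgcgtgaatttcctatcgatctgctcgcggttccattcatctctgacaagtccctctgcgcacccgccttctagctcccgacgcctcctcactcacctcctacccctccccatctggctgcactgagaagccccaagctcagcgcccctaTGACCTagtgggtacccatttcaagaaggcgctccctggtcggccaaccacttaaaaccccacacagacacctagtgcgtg
The capitals mark 1 CCAAT box on the opposite strand for Hoxa5, 2 caudal-type matches (TTTATG, the core bound by Cdx factors) for Hoxa7, and 1 nuclear receptor match (AGGTCA) on the opposite strand for Hoxb4. The Hoxa5 window held 28 CpG dinucleotides and 63.6% G and C, against 7 and 54.8% for Hoxa7 and 14 and 58.0% for Hoxb4. RefSeq promoters were matched for 19 of the 33 genes, with 21 windows. Their median G and C content was 59.2% (range 44.4% to 80.0%), against 52.4% over all 32851 mouse windows, and their median number of CpG dinucleotides was 13 (range 2 to 35), against 6. On either strand, the caudal-type match was in 14.3% of the Hox windows and 10.8% of all windows. The nuclear receptor match was in 23.8% of the Hox windows and 14.0% of all. The TATA box (searched as TATAAA) was in 9.52% and 12.4%, and the CCAAT box (searched by those 5 letters) in 52.4% and 33.8%. The GATA factor motif, searched as AGATAA, was in 0 of the Hox windows and 9.99% of all. These are letter matches in the windows, and binding was not measured.

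Most Hox genes lay low on these arrays. Values are probe set intensities on a linear scale with no detection calls, so the median of each array (6.29 to 6.73 units) served as the mark of a low level. Of the 33 genes, 18 (54.5%) were under the median of their own array on all 12 arrays, with values from 2.75 to 5.93 units, and 10 were over it on all 12. Of all 18193 genes, 25.8% were under on all 12 arrays and 59.2% were over. The means of 13 of the 18 low genes were also under the 25th percentile of the whole table, 4.10 units. A low value says only that the probe set was not distinguished from the lower part of the array, since probe sets differ in their own response.

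**Figure D1:**
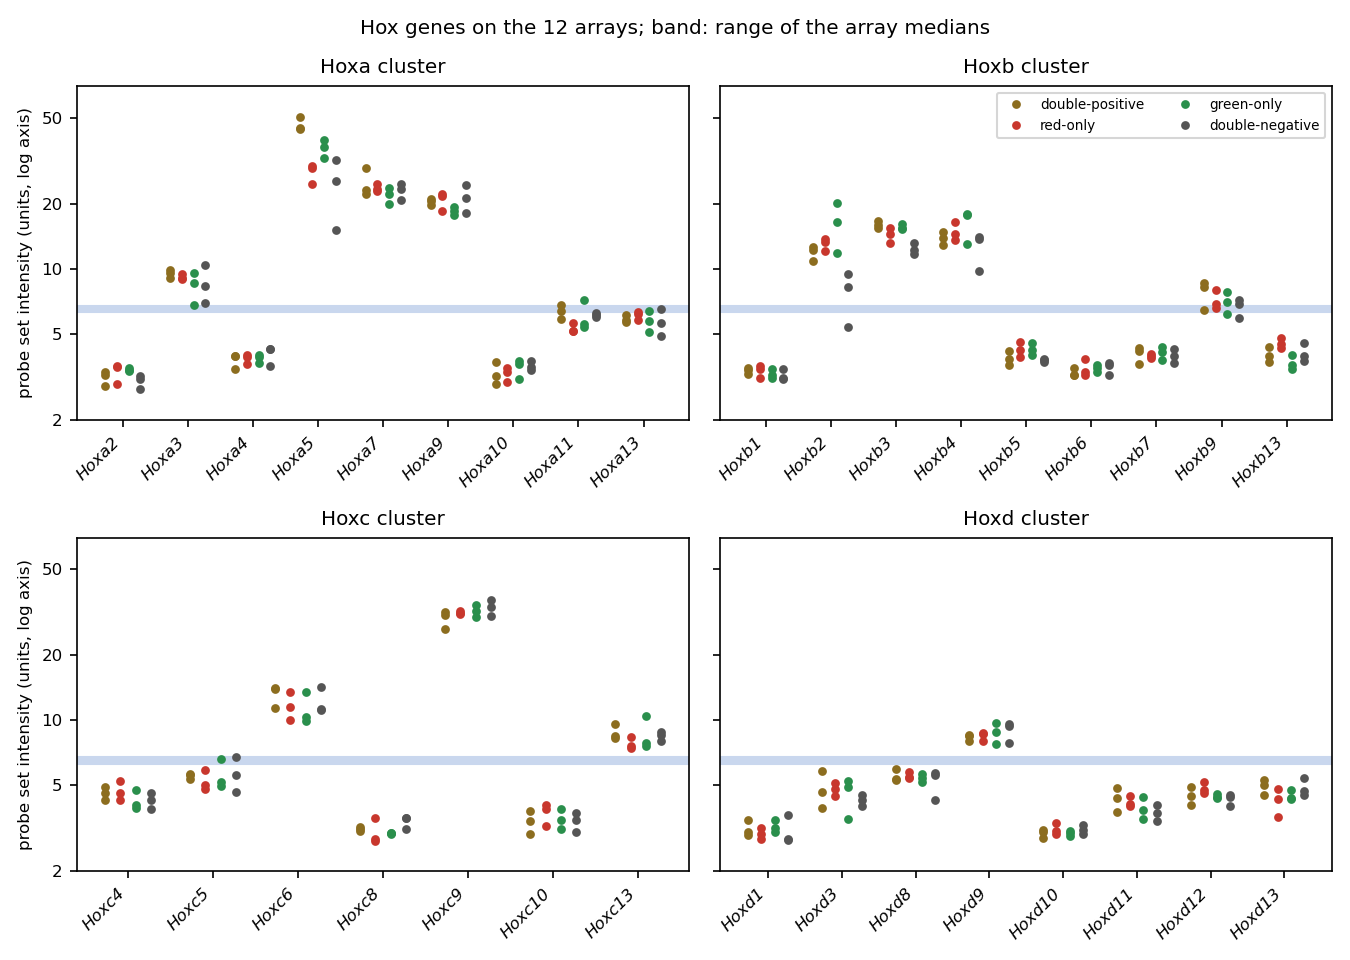
Probe set intensity (log axis) of the 33 Hox genes on the 12 arrays, in 4 panels for the clusters, with genes in order of paralogue number, 1 point per array, populations by colour, and a band for the range of the array medians (6.29 to 6.73 units). Of the 8 Hoxd genes 7 lie under the band throughout, and in Hoxb2 every double-negative point lies below all points of the other populations.

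By cluster, the genes under the median on all 12 arrays were 3 of 9 in Hoxa (Hoxa2, Hoxa4 and Hoxa10), 5 of 9 in Hoxb (Hoxb1, Hoxb5, Hoxb6, Hoxb7 and Hoxb13), 3 of 7 in Hoxc (Hoxc4, Hoxc8 and Hoxc10) and 7 of 8 in Hoxd (Hoxd1, Hoxd3, Hoxd8, Hoxd10, Hoxd11, Hoxd12 and Hoxd13). The genes over it on all 12 were Hoxa3, Hoxa5, Hoxa7 and Hoxa9, then Hoxb3 and Hoxb4, then Hoxc6, Hoxc9 and Hoxc13, and Hoxd9 alone in its cluster. Hoxa11, Hoxa13, Hoxb2, Hoxb9 and Hoxc5 were over it on some arrays. By paralogue number, 6 of 10 genes numbered 1 to 4, 5 of 9 numbered 5 to 8 and 7 of 14 numbered 9 to 13 were under on all arrays, so the low genes were not gathered at one end of the clusters. Number 9 was the group with the most members over the median: 3 of its 4 genes (Hoxa9, Hoxc9 and Hoxd9) on all 12 arrays and Hoxb9 on 9. Both genes of number 1 and all 3 of number 10 were under on all arrays.

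Hoxb1 and Hoxd1, the measured genes of number 1, ran from 3.08 to 3.54 and from 2.79 to 3.62 units. Hoxa2, a hindbrain and arch gene, ran from 2.78 to 3.53 units. None of these values reached an array median in any population, the double-positive cells included.

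The choice of probe set bears on these levels. For 11 of the 33 genes the array had more than 1 probe set, and 13 of the 15 probe sets not chosen were under the median on all 12 arrays. Of the 10 genes over the median on all arrays, 6 had more than 1 probe set, and each of these 6 (Hoxa3, Hoxa5, Hoxa9, Hoxb3, Hoxb4 and Hoxc6) had another probe set under it on all 12 arrays, at 2.79 to 5.28 units. The other 4 (Hoxa7, Hoxc9, Hoxc13 and Hoxd9) had 1 probe set each. Probe sets not chosen have the lower means by the rule of choice. The same counts were not made over all genes, so they are not a trait of Hox genes.

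Differences between populations were tested with limma on log2(intensity + 4.10), with p-values adjusted by the Benjamini-Hochberg method over 13698 genes whose mean passed a filter on low values, and a threshold of 0.05. Fold changes on this scale understate the change of low genes. Of the 33 Hox genes 16 passed the filter: 6 from Hoxa, 4 from Hoxb, 4 from Hoxc and 2 from Hoxd. In the test of any difference among the 4 populations 3 of the 16 were called (Hoxa5, Hoxb2 and Hoxb3), against 32.3% of all genes tested. All the calls in the comparisons with double-negative cells were towards higher values in the reporter-positive cells. Since RNA of whole populations was measured, fewer cells of a type and less RNA per cell cannot be told apart.

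Hoxa5, a factor known from the lung and neck region, was highest in double-positive cells. Its intensity was 50.4, 44.6 and 44.2 units on the double-positive arrays of experiments A, B and C, 36.7, 32.4 and 39.3 on the green-only arrays, 24.6, 29.8 and 29.3 on the red-only arrays, and 31.8, 25.4 and 15.2 on the double-negative arrays. All 3 double-positive values lay above every other value, all 3 green-only values lay above the red-only and double-negative ones, and those of the last pair overlapped. The mean in double-positive cells, 46.4 ± 3.5 units (SD, n = 3), was 1.93 times that in double-negative cells, 24.1 ± 8.4 units (SD, n = 3). The log2 difference was 0.88 ± 0.17 (SE; limma adjusted p = 0.00158), with 0.60, 0.73 and 1.33 within experiments A, B and C. It was also called against red-only cells, by 0.66 ± 0.17 (SE; limma adjusted p = 0.0250). Green-only cells exceeded double-negative cells by 0.56 ± 0.17 (SE; limma adjusted p = 0.0375). The remaining comparisons were not called: 0.22 ± 0.17 (SE; limma adjusted p = 0.422) for red-only against double-negative cells, 0.33 ± 0.17 (adjusted p = 0.355) for double-positive against green-only cells and -0.33 ± 0.17 (adjusted p = 0.411) for red-only against green-only cells.

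The low double-negative array of experiment C carries part of these values. Without it the difference of double-positive from double-negative cells was 0.63 and still called, and that of green-only cells was 0.30 and no longer called. The green-only call was also lost without any 1 of the green-only arrays, the experiment B array of double-negative cells or the experiment C array of double-positive cells (0.50 to 0.62). The call against red-only cells was lost when any 1 of the 6 arrays compared was left out, with differences of 0.58 to 0.70. With whole experiments left out, the green-only call was lost without B or C, at differences down to 0.25. The call against red-only cells was lost without A or B, and that against double-negative cells was kept each time. The second Hoxa5 probe set lay at 2.79 to 4.76 units on all arrays and did not pass the filter, and the chosen one belongs to a class (suffix _x) that can bind transcripts of more than 1 gene. The 3′ to 5′ ratio of the actin control probe sets, a sign of RNA quality, was 1.55, 1.47 and 1.40 on the double-positive arrays. It was 1.36, 1.36 and 1.34 on the double-negative, 1.40, 1.48 and 1.32 on the red-only and 1.35, 1.44 and 1.33 on the green-only arrays. The same ratio for Gapdh was 0.945, 0.942 and 0.951 on the double-positive arrays and 0.97, 0.952 and 0.91 on the double-negative arrays. The part of RNA quality in the Hoxa5 result was not tested.

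**Figure D2:**
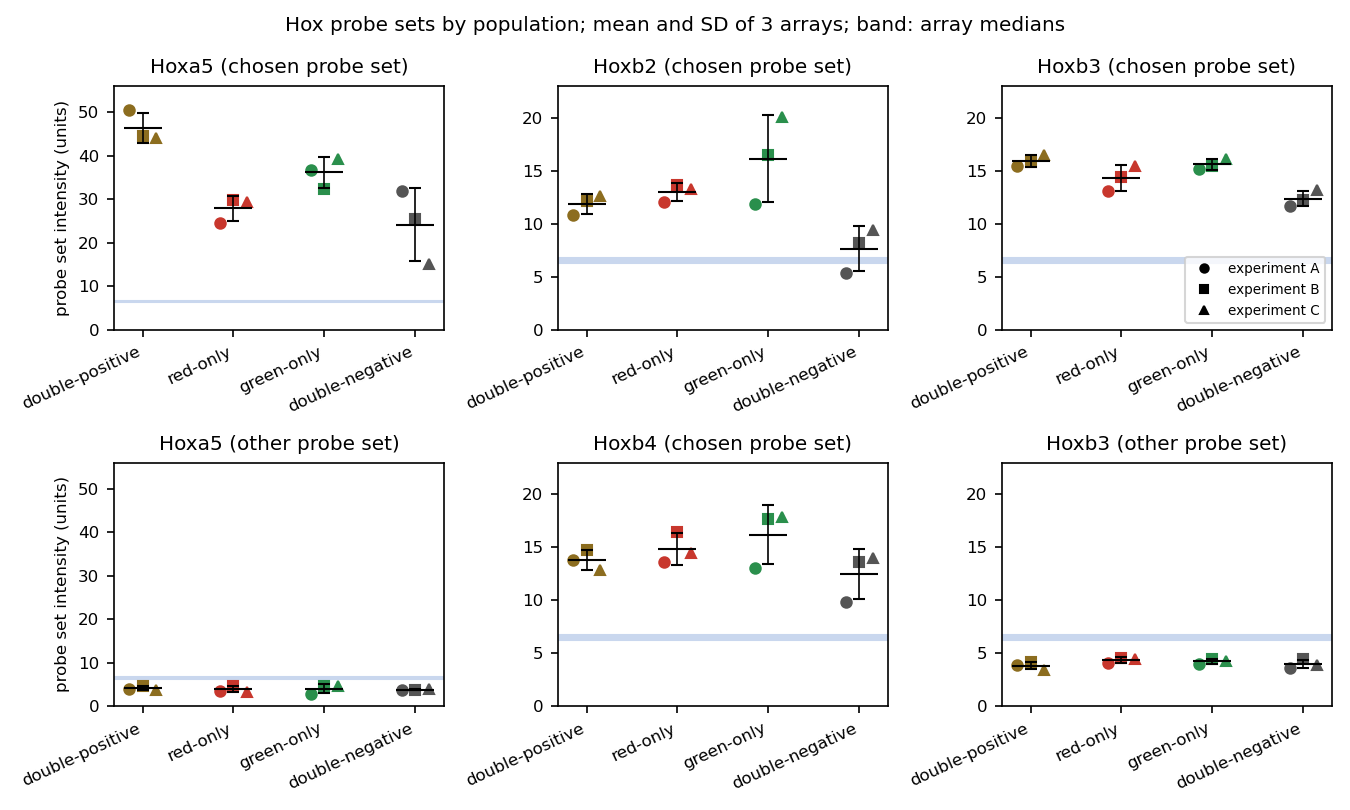
Intensity on a linear axis starting at 0 for 6 Hox probe sets by population, with 1 symbol per array (shape: experiment), bars for the mean and SD of 3 arrays, and a band for the array medians. The chosen probe sets of Hoxa5, Hoxb2 and Hoxb3 are lowest on average in double-negative cells, and the other probe sets of Hoxa5 and Hoxb3 stay under 5 units.

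Hoxb2, a hindbrain segment gene, was higher in all 3 reporter-positive populations than in double-negative cells. It had 1 probe set, and its intensity was 10.8, 12.2 and 12.6 units on the double-positive arrays, 12.01, 13.7 and 13.3 on the red-only arrays, 11.9, 16.5 and 20.1 on the green-only arrays, and 5.34, 8.22 and 9.41 on the double-negative arrays. No reporter-positive array was as low as any double-negative array, and the 3 reporter-positive populations overlapped. The log2 difference from double-negative cells was 0.46 ± 0.15 (SE; limma adjusted p = 0.0319) for double-positive cells. It was 0.56 ± 0.15 (SE; limma adjusted p = 0.0152) for red-only cells and 0.78 ± 0.15 (SE; limma adjusted p = 0.00224) for green-only cells. The interaction of the reporters (the double-positive difference less the sum of the red-only and green-only differences) was -0.88 ± 0.21 (SE; limma adjusted p = 0.0180), with -0.87, -0.87 and -0.90 in experiments A, B and C. So the double-positive value lay below the sum of the 2 single-reporter differences, and it was not the highest of the 4 populations. It lay under green-only cells by -0.32 ± 0.15, which was not called (SE; limma adjusted p = 0.266). Without the experiment A double-negative array, where the gene was under the array median, the differences were 0.31 for double-positive cells and 0.40 for red-only cells, and both calls were lost. The double-positive call was also lost without the experiment B or C array of that population (0.44 and 0.42), and the red-only call without the experiment B array of its own (0.53). Without experiment B all 3 calls were lost, the green-only one at a difference of 0.80, and without experiment C the double-positive one was lost.

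Hoxb3 changed less. Its intensity was 15.4, 15.8 and 16.5 units on the double-positive arrays, 13.1, 14.4 and 15.5 on the red-only arrays, 15.2, 15.5 and 16.2 on the green-only arrays, and 11.7, 12.2 and 13.2 on the double-negative arrays. The double-positive and green-only values lay above all double-negative ones, and the red-only values overlapped with them. The log2 difference from double-negative cells was 0.28 ± 0.07 (SE; limma adjusted p = 0.00847) in double-positive and 0.26 ± 0.07 (SE; limma adjusted p = 0.0207) in green-only cells. In red-only cells it was 0.16 ± 0.07 (SE; limma adjusted p = 0.134), not called. The green-only call was lost without the experiment C array of green-only cells, or without the experiment A or B array of double-negative cells, and without each of the 3 experiments (0.25, 0.26 and 0.27 without A, B and C). The double-positive call was kept without any single array but lost without experiment B or C (0.28 and 0.295). The other Hoxb3 probe set ran from 3.47 to 4.55 units and was not tested.

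Hoxb4, next in the cluster, stood at 13.8, 14.7 and 12.8 units on the double-positive arrays, 13.6, 16.5 and 14.4 on the red-only arrays, 13.03, 17.7 and 17.9 on the green-only arrays, and 9.80, 13.7 and 14.0 on the double-negative arrays. Within each experiment the green-only value was above the double-negative one, while the populations overlapped across experiments. The difference was 0.29 ± 0.12 (SE; limma adjusted p = 0.111), not called. With the experiment as a replicate block its adjusted p was 0.0344, which brought the Hox genes called in green-only cells to 4. Further along the cluster, Hoxb5 (3.58 to 4.57 units), Hoxb6 (3.21 to 3.82) and Hoxb7 (3.61 to 4.34) lay under all array medians and did not pass the filter.

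Counts were read against the share of all tested genes called. Against double-negative cells, 3 of 16 Hox genes were called in double-positive cells, all higher, where 31.5% of all genes were called and 13.9% were called higher. In red-only cells 1 of 16 was called, higher (all genes 23.6%, higher 10.9%). In green-only cells 3 of 16 were called, all higher (all genes 20.7%, higher 9.33%). In double-positive against red-only cells 1 of 16 was called, higher (all genes 12.1%, higher 5.94%). With limma, 0 of 16 were called in double-positive against green-only cells (all genes 5.62%; 1 Hox gene at an unadjusted p under 0.05). In red-only against green-only cells 0 were called too (all genes 3.08%; 0 at an unadjusted p under 0.05). For the interaction of the reporters 1 of 16 was called, where all genes gave 10.5%. With both directions counted, the share of Hox genes called was below that of all genes in each comparison. The share called higher was 18.8% in double-positive and also in green-only cells, above that of all genes but resting on 3 genes each time, and this difference was not tested. The median log2 difference of the 16 from double-negative cells was 0.068 for the double-positive, 0.045 for the red-only and 0.00 for the green-only population, where all genes gave -0.01, -0.02 and -0.01.

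The other 13 tested Hox genes had no call in any of the 6 comparisons, with log2 differences between -0.17 and 0.29. Hoxa7, a thoracic gene, averaged 24.8 ± 3.9 units for the double-positive, 23.5 ± 0.87 for the red-only, 21.95 ± 1.9 for the green-only and 22.96 ± 1.9 for the double-negative population (SD, n = 3 each). Hoxa9, a trunk and limb gene also known from blood progenitors, averaged 20.4 ± 0.68, 20.8 ± 2.0, 18.4 ± 0.83 and 21.3 ± 3.1 units in the same order. Hoxc9, active in the thoracic spinal cord, averaged 29.6 ± 2.9, 31.5 ± 0.56, 32.1 ± 2.0 and 33.2 ± 2.8 units. These 3 genes were well over the array medians in every population, and none of their differences passed the test. Their populations overlapped, except that all 3 double-positive values of Hoxa9 lay above its green-only values.

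Hoxc6 averaged 13.2 ± 1.5, 11.7 ± 1.8, 11.3 ± 2.0 and 12.2 ± 1.8 units in that order of populations (SD, n = 3 each). Hoxa3, needed for pharyngeal arch derivatives, averaged 9.46 ± 0.39, 9.14 ± 0.26, 8.34 ± 1.4 and 8.54 ± 1.7 units. Hoxc13, a hair and tail gene, averaged 8.77 ± 0.74, 7.76 ± 0.49, 8.64 ± 1.6 and 8.43 ± 0.37 units. Hoxd9 averaged 8.35 ± 0.28, 8.47 ± 0.38, 8.75 ± 0.99 and 8.94 ± 0.93 units. Hoxb9 averaged 7.76 ± 1.1, 7.14 ± 0.74, 6.98 ± 0.78 and 6.65 ± 0.66 units. These lay within a few units of the medians, except Hoxc6, whose mean was over the 60th percentile of all values (9.09 units) in every population. None of the differences of these genes passed the test. The other tested genes, Hoxa11, Hoxa13, Hoxc5 and Hoxd8, ran from 4.25 to 7.12 units.

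**Figure D3:**
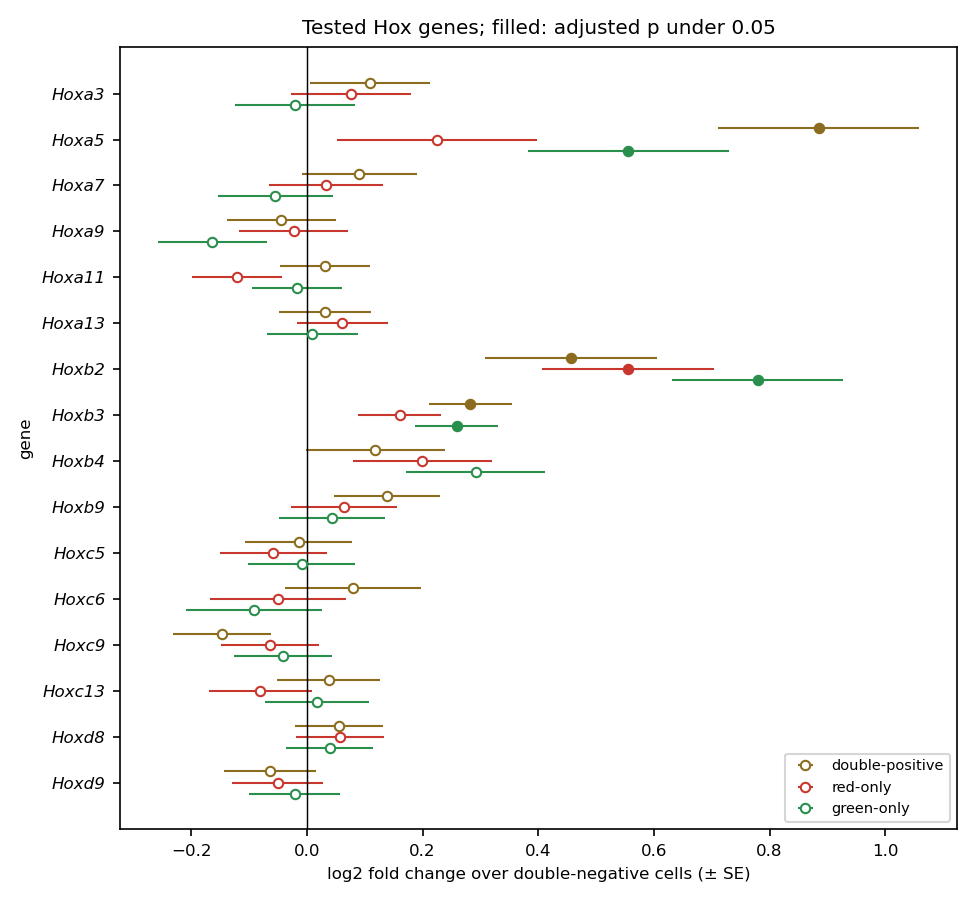
Log2 fold change over double-negative cells (horizontal axis, ± SE from limma) for the 16 tested Hox genes (vertical axis, by cluster and number) for each reporter-positive population, with filled points for called genes (threshold 0.05). The 7 filled points belong to Hoxa5, Hoxb2 and Hoxb3, and all lie to the right of 0.

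Hox proteins bind DNA with cofactors of the PBX, MEIS and PKNOX families, and some of these rose with the reporters. Of 8 cofactor genes tested, 4 were called higher and 0 lower in double-positive cells relative to double-negative ones. The same counts were 5 and 0 for red-only cells and 2 and 0 for green-only cells. Of all genes, 13.9%, 10.9% and 9.33% were called higher in these comparisons. Leaving out single arrays gave 3 to 5, 4 to 5 and 1 to 3 higher genes, the 1 without the experiment C array of green-only cells, or the experiment A or B array of double-negative cells. Leaving out an experiment gave as few as 2 (without B), 3 (without A or B) and 0 (without C). Meis1, a MEIS-family cofactor, was at 21.8, 38.2 and 28.1 units on the double-positive arrays, 16.1, 25.8 and 21.0 on the red-only arrays, 12.6, 23.5 and 26.7 on the green-only arrays, and 5.52, 6.65 and 8.09 on the double-negative arrays. No reporter-positive array was as low as a double-negative one. The differences were 1.60 ± 0.23 (SE; limma adjusted p = 0.000136), 1.20 ± 0.23 (adjusted p = 0.00193) and 1.16 ± 0.23 (adjusted p = 0.00268). Meis2 rose by 0.84 ± 0.17, 1.29 ± 0.17 and 0.65 ± 0.17 in the same order, all called. Pknox2 rose by 0.79 ± 0.11 in double-positive and 0.76 ± 0.11 in red-only cells. Pbx2 rose by 0.45 ± 0.11 in red-only cells. Pbx4 lay under all array medians. The medians of the 8 genes were 0.32, 0.37 and 0.26, against -0.01, -0.02 and -0.01 for all genes.

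**Figure D4:**
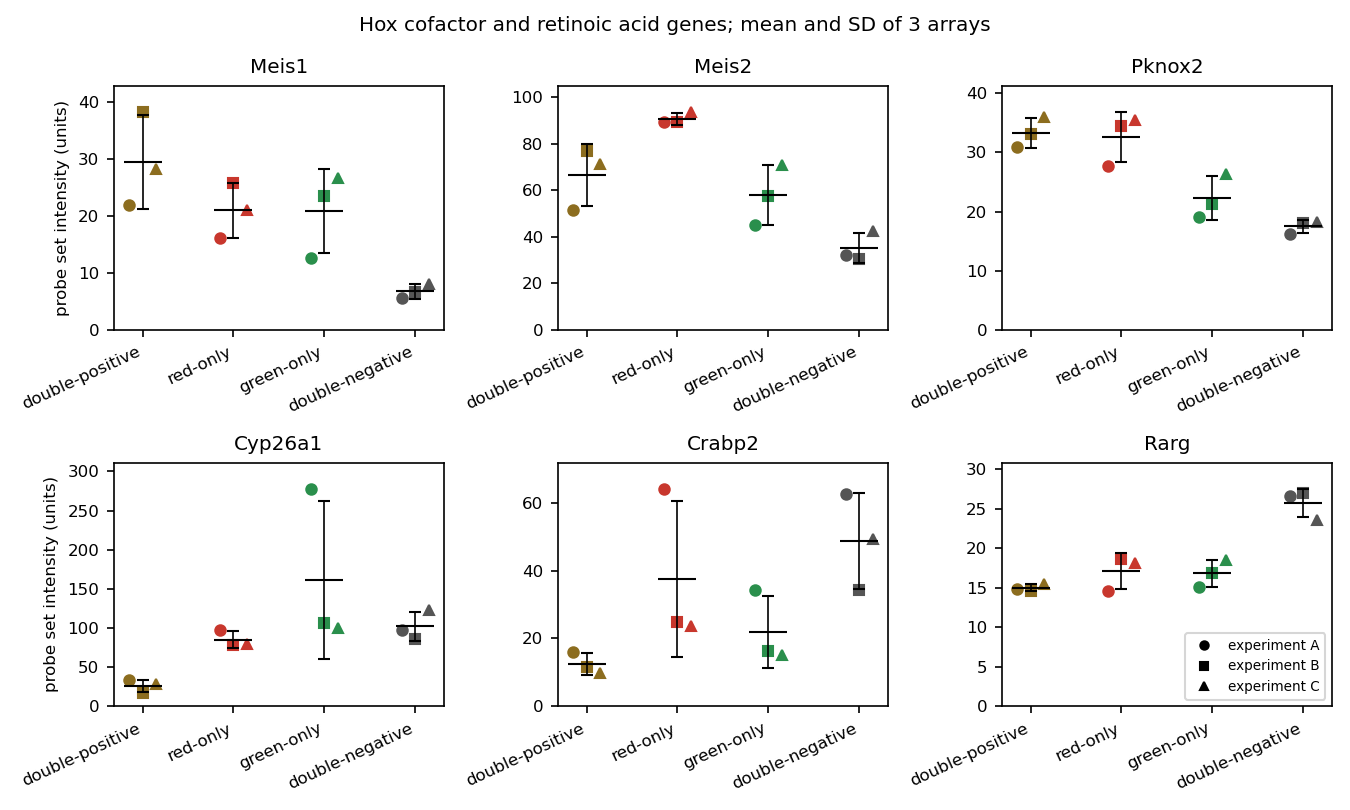
Intensity on linear axes starting at 0 for 3 cofactor genes (Meis1, Meis2, Pknox2) and 3 retinoic acid genes (Cyp26a1, Crabp2, Rarg) by population, with 1 symbol per array (shape: experiment) and bars for the mean and SD of 3 arrays. Meis1 is lowest on the 3 double-negative arrays (5.52 to 8.09 units), and Rarg is highest there.

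Of 11 genes that set up Hox expression along the axis, 8 were measured and 5 tested. By limma 0 were called in any of the 3 comparisons with double-negative cells, where all genes gave 31.5%, 23.6% and 20.7%. In double-positive cells 1 was called higher with the replicate block or without the experiment A or B array of that population. In red-only cells 1 was called with the block, with only the 6 arrays compared, or without the experiment C array of double-positive cells. Cdx1, Cdx4 and Gbx2 were under the array median on all 12 arrays. Gdf11 and Fgf8 were over it on all 12, Egr2 on 10 and Wnt3a on 5. Cdx2, also over it on all 12, is a caudal-type factor that opens the central Hox genes and ran from 10.4 to 13.2 units.

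In the retinoic acid pathway, which induces anterior Hox genes, 3 of 8 tested genes were called lower and 0 higher in double-positive cells, relative to double-negative ones. Of all genes, 17.6%, 12.7% and 11.4% were called lower in the 3 comparisons with double-negative cells, in the same order of populations. Cyp26a1, which degrades retinoic acid, was at 33.1, 17.6 and 28.2 units on the double-positive arrays and at 97.7, 85.6 and 123 on the double-negative arrays, and it fell by 1.82 ± 0.31 (SE; limma adjusted p = 0.000597). On the red-only arrays it was at 97.9, 79.0 and 79.1 units and on the green-only arrays at 278, 107 and 100, and neither difference was called. Crabp2, a binding protein that carries retinoic acid to the nucleus, fell by 1.65 ± 0.34 in double-positive cells (adjusted p = 0.00226). Rarg, a retinoic acid receptor, fell by 0.64 ± 0.09 in double-positive cells (adjusted p = 0.000155). It also fell by 0.49 ± 0.09 in red-only cells and by 0.51 ± 0.09 in the green-only population. Red-only cells had 1 gene called lower and green-only cells 2. The 2 became 1 without the experiment B or C array of the double-positive or green-only cells, or the experiment A or C array of the double-negative ones. It was also 1 without the filter, with the intensity trend or without experiment C, and 0 without experiment B. Median differences of the 8 tested genes were -0.031, -0.017 and 0.17, against -0.01, -0.02 and -0.01 for all genes, so the list as a whole was not lower. Aldh1a2, which makes retinoic acid in the embryo, was under the array medians on all 12 arrays (3.78 to 5.25 units).

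Among 17 tested Polycomb, trithorax and boundary factors, 7 were called lower and 1 higher in double-positive cells, relative to double-negative ones (all genes 17.6% lower and 13.9% higher). Red-only cells had 4 lower and 2 higher (all genes 12.7% and 10.9%), and green-only cells 5 lower and 1 higher (all genes 11.4% and 9.33%). Phc1, a subunit of the first Polycomb complex, fell by 1.68 ± 0.11 and Cbx7, which reads the Polycomb mark, by 1.55 ± 0.12 in double-positive cells. Ezh2 (the methyltransferase) fell by 0.84 ± 0.20 and Eed (its partner) by 0.76 ± 0.13. The gene called higher there was Kdm6b, which removes the mark, by 0.38 ± 0.08. Median differences were -0.26, -0.11 and -0.165, against -0.01, -0.02 and -0.01 for all genes. Without experiment C the double-positive count of lower genes was 4, and without B or C the green-only count was 2. The 5 pluripotency markers (Dppa5a, Nanog, Pou5f1, Utf1 and Zfp42) were called lower in all 3 populations as well, with summed intensities of 90.2 to 132 units there and 1298 to 1583 in double-negative cells, and their part in these differences was not tested.

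Among genes that flank the clusters 11 were tested in double-positive against double-negative cells. Of these, 3 were called higher (Hibadh, Lnpk and Mtx2) and 1 lower (Cbx1), where all genes gave 13.9% and 17.6%. The count of higher genes was 0 to 3 with single arrays left out, and 0 without either experiment A array of the comparison. With the replicate block 3 were called lower. In red-only cells 2 were called lower (Cbx1 and Evx1), where all genes gave 12.7%. There were 0 with the experiment B or C array of red-only cells, or the experiment A or C array of double-negative cells, left out. With the block 1 was called higher there. In green-only cells Cbx1 alone was called, lower (all genes 11.4% lower). The Hox neighbour Evx1, which borders the Hoxa cluster, fell by 0.26 ± 0.08 in red-only cells.

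Cell types known to express Hox genes, and others that the embryoid bodies can hold, were followed through marker lists. Their counts stand against 17.6%, 12.7% and 11.4% of all genes called lower and 13.9%, 10.9% and 9.33% called higher in the double-positive, red-only and green-only comparisons. For neural cells 9 genes were measured, of which 3 were under the medians on all arrays, and summed intensities were 152.5 to 181.9 units (double-positive), 132.3 to 134.5 (red-only), 148.8 to 170.7 (green-only) and 239.7 to 322.3 (double-negative). Of 6 tested, 3, 3 and 2 were lower and 0 higher in the 3 reporter-positive populations, with Sox2, which is also a pluripotency gene, among them. For paraxial mesoderm 10 were measured and 3 were under the medians throughout, with sums of 59.4 to 63.6, 59.5 to 65.1, 66.0 to 75.4 and 76.6 to 88.5 units. Of 6 tested, 2, 2 and 1 were lower, and 1 was higher in red-only cells, which was lost without the experiment A array of red-only or the experiment B or C array of double-negative cells. For posterior lateral plate and allantois 8 were measured, with sums of 386 to 466, 264 to 337, 327 to 396 and 124 to 186 units, and 3, 3 and 4 were called higher. Most of the gap between the double-positive and double-negative sums lay in Bmp4 (means of 215 and 37.2 units) and Wnt2 (90.4 and 11.2 units). For limb and fibroblast mesenchyme 10 were measured, with sums of 264 to 324, 362 to 839, 222 to 333 and 150 to 177 units, and 2, 7 and 2 of 9 tested were called higher and 1 lower (Thy1) in each comparison. The 7 became 4 without experiment C. With the replicate block the first and last of these counts were 4, and the last was 1 without the experiment C array of green-only or the experiment B array of double-negative cells. Blood markers summed to 98.9 to 146.2, 123.8 to 193.0 and 124.9 to 194.2 units where a reporter was on and to 1014 to 1846 units in double-negative cells. Of 6 tested, 2, 3 and 2 were lower, among them the embryonic globins Hba-x and Hbb-bh1, and 0, 1 and 1 were higher (Tal1, with each call lost without some single arrays, such as the experiment A or B array of double-negative cells). Endothelial markers summed to 181.9 to 257.5, 478.3 to 663.4, 252.7 to 770.4 and 105.5 to 208.0 units, and 0, 3 and 3 of 5 tested were higher. The green-only count was 2 to 5 without single arrays, 5 without its experiment A array, and 0 without experiment B or C. Endoderm markers summed to 81.2 to 157.3, 78.0 to 175.2, 175.6 to 958.9 and 168.0 to 533.5 units, and 2, 1 and 0 of 5 tested were lower. With the replicate block the first of these counts was 4 and so was the next. Without single arrays they were 1 to 3 and 0 to 3. No marker was at 0, since the lowest value in the whole table was 2.09 units. The sums of the lateral plate and the limb and fibroblast lists were higher on every reporter-positive array than on any double-negative array. So were the sums of the cardiac markers and of the cofactors. Members of the 2 mesoderm lists were mixed. In double-positive cells the means of Foxf1, Tbx3, Tbx4, Col3a1, Lum, Prrx1 and Thy1 were lower than in double-negative cells, and those of the others higher. These sums stood beside the higher means of Hoxa5, Hoxb2 and Hoxb3 in reporter-positive cells, and the part of these markers in the Hox differences was not tested.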

How the data were processed

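Mouse arrays from 12 sorted samples were analysed, 3 for each of 4 populations, from 5 ug of total RNA each, with groups taken from the titles. The protocol's account of the sort misnames the double-negative population and gives its abbreviation correctly, while titles and reporter labels name it without conflict. The deposited table holds linear probe set intensity values, 1 per probe set and array. MAS5 is named per the submitters' processing notes, and its scaling and any genome build are not given in the sources used here. Of 45101 probe sets, 64 controls were left out, 34945 had 1 gene in the platform annotation and were used, 932 had several and 9160 none. The probe set with the highest mean stood for each gene. Values entered limma 3.58.1 (R 4.3.3) as log2(intensity + 4.10), where 4.10 is the 25th percentile of the table, and were not normalized further. Genes whose mean was under the 40th percentile (3.22 on that scale) were not tested. The fit had 1 mean per population, 8 residual degrees of freedom and Benjamini-Hochberg adjustment over 13698 genes. It was also run on simulated data with independent arrays, which says nothing about the pairing described next. Arrays with the same experiment letter deviated together (18 of 18 correlations of deviations from the population means over 0.1, from 0.116 to 0.424), so the letters of the titles pair the samples. The p-values printed ignore this pairing unless the replicate block is named. With the block, limma adjusted p-values for Hoxb2 against double-negative cells were 0.0026 (double-positive), 0.0010 (red-only) and 0.000106 (green-only). Its interaction had 0.00128. Hoxa5 had 0.001355 (double-positive) and 0.0302 (green-only), and 0.019 for double-positive against red-only cells. Hoxb3 had 0.00416 (double-positive) and 0.0102 (green-only). The number of arrays limits the precision.

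The Hox genes and the lists of partners, regulators, neighbouring genes and cell type markers were chosen with earlier results of these data known. Full values are given for each Hox gene called in a comparison or with a population mean over the highest array median, which 12 genes had, and the others by range. Of the lists, at most 4 called genes with the largest change are named beside the counts, with small sets and low genes named in full. Promoter sequences are from RefSeq (GRCm38.p6). Alternatives tried were other pseudocounts, quantile normalization, other filters, every probe set, an intensity trend, the replicate block, fewer arrays and each array or experiment left out.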

Additional observations from a re-analysis of the deposited data

Results flagged for a closer look

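The interaction of the 2 reporters at Hoxb2 was set apart because the difference between cells sorted with and without 1 reporter was not the same with the other reporter on and off. The double-positive difference from double-negative cells lay below the sum of the red-only and green-only differences by -0.88 ± 0.21 on the log2 scale (SE; limma adjusted p = 0.0180), and by a like amount in each of the 3 experiments (-0.87, -0.87 and -0.90). Leaving out single arrays or experiments gave -1.04 to -0.73, and the call was lost without experiment B or C. Of the 16 Hox genes tested it was the 1 called for this interaction, a share below the 10.5% of all genes tested.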

How the results depend on the processing

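No result changed direction under the alternatives. Of 72 counts of Hox genes recomputed with the other settings, 71 were within 1.5 times the value reported. The exception was 1 gene in place of 3 in green-only against double-negative cells when only the 6 arrays compared were fitted. With the replicate block the counts were 3 of any difference, 3 (double-positive), 1 (red-only) and 4 (green-only, Hoxb4 added) against double-negative cells, and the block changed no other call. Leaving out single arrays or experiments gave counts of 0 to 3 for any difference among the populations. Against double-negative cells they were 1 to 3 for double-positive, 0 to 1 for red-only and 0 to 3 for green-only cells. They were 0 to 1 for double-positive against red-only cells and 0 to 1 for the interaction. The count for any difference was 0 without experiment B. The cause was not tested, beyond there being fewer arrays. Hoxa5 stayed called in double-positive against double-negative cells under every alternative, from 0.63 to 1.08 with arrays left out. Its green-only call was lost with quantile normalization (0.52), without the filter and with only the 6 arrays compared (0.56 in both). The Hoxb3 green-only call was lost with only the 6 arrays compared (0.26). The number of Hox genes with a population mean over the bound was 12 with the highest array median, 13 with the lowest and 9 with the 60th percentile of all values (9.09 units).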

Other observations

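Hox probe sets outside the 33 genes were low with 2 exceptions. A probe set shared by Hoxd4 and Hoxd3 ran from 6.49 to 8.82 units and was over the array median on all 12 arrays, with means of 7.61 ± 0.44 in double-positive, 7.20 ± 0.41 in red-only, 7.66 ± 0.09 in green-only cells and 7.69 ± 1.2 in double-negative ones (SD, n = 3 each). The other probe set shared by these genes ran from 4.33 to 6.04 units, and that shared by Hoxb8 and Hoxb7 from 2.81 to 3.69 units. Hoxb5os, the antisense transcript beside Hoxb5, was at 11.9, 13.2 and 13.1 units on the double-positive arrays, 7.54, 9.64 and 10.99 on the red-only arrays, 10.9, 11.5 and 10.02 on the green-only arrays and 7.67, 10.9 and 8.50 on the double-negative arrays. Its 3 double-positive values lay above every other value. It exceeded double-negative cells by 0.37 ± 0.11 (SE; limma adjusted p = 0.0185) in double-positive cells, a gene chosen after its values were seen. Hoxb5 itself lay under the array medians on all 12 arrays. The antisense transcripts Hoxa11os and Hoxd3os1 lay under them as well, at 3.22 to 4.55 and 2.70 to 5.21 units.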
